A study of Mus musculus with 10 samples.

Results

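Dexamethasone, a synthetic glucocorticoid, was compared with solvent in RAW264.7, a macrophage-like line that was derived from a virus-induced mouse tumour. The comparison took every non-control probe of the array, without choosing genes by their values, and could be made for 18051 genes of the 18056 represented over the whole series. It rests on 4 of the 10 arrays, 2 labelled Dex and 2 labelled EtoH. The other 6 arrays, 2 each for FF (fluticasone furoate), VSG22 and VSGC12, entered the fit for the estimate of the spread and are compared with dexamethasone only at the end. The Dex cells were given dexamethasone at 100 nM and, 1 hour later, lipopolysaccharide (LPS), the outer-membrane molecule of bacteria to which macrophages respond, at 1 µg/ml for 16 hours. FF, VSG22 and VSGC12 were used in that same scheme. The EtoH cells are labelled only by that treatment, so they are read as given solvent and no glucocorticoid. Whether they received LPS is not said, and an effect of LPS alone and an effect of dexamethasone cannot be told apart from the labels. Nor do the labels say that the arrays of a group came from separate cultures, so p-values measure the spread between these arrays, which may be technical.

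Glucocorticoids enter the cell and bind the glucocorticoid receptor, a transcription factor that waits in the cytoplasm on HSP90 and its co-chaperones. The bound receptor moves to the nucleus, where it switches on genes next to its response elements and restrains genes driven by NF-kB and AP-1, the factors that Toll-like receptors activate. In macrophages this class of drug is known for lowering cytokines, chemokines, inducible nitric oxide synthase and cyclooxygenase, and for raising receptors that clear dying cells. LPS itself acts through Toll-like receptor 4, which also switches on interferon beta, and interferon beta then induces a large set of antiviral genes in the same cells.

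Levels are given on the log2 scale as the processed signal of a gene's probe relative to the 75th percentile of all probes on that array, so a level of 0 lies at that percentile and a step of 1 is 2-fold. Changes are Dex minus EtoH on that scale, with the standard error and the Benjamini-Hochberg adjusted p of the limma fit over all genes. A gene is called where that adjusted p is under 0.05. A probe counts as detected on an array where the software marked it as well above background.

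The Dex arrays stood apart from the others in their spread. The difference between the replicates of a group had an SD over genes of 0.63 in Dex, against 0.33 in EtoH and 0.33 to 0.41 in the other groups. Dex replicate 2 read at least 2-fold above Dex replicate 1 for 1154 genes and at least 2-fold below it for 237, whereas in EtoH these counts were 162 and 196. Local patches of signal, where spots around a probe were detected on that array and not in the other groups, covered 3.91% and 5.44% of the Dex spots and between 0.416% and 1.88% on the other arrays. Of the genes tested, 1667 (9.23%) had a probe within such a patch of either Dex array (a Dex patch), which is stated for each gene named. Of the 1154 genes above, 1009 lay outside Dex patches. Without genes in patches on a Dex or EtoH array, the SD between the Dex replicates was 0.62. The share of spots detected ran from 40.1% to 44.4% over the arrays, and 0 spots were saturated. All 26 measured macrophage identity genes, among them Csf1r, Itgam, Adgre1 and Cd68, were detected on all 4 arrays.

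About as many genes were higher as lower in Dex than in EtoH. Of 18051 genes tested, 5819 (32.2%) were called, of which 2983 (16.5% of those tested) were higher in Dex and 2836 (15.7%) were lower. Large changes were fewer. At least 2-fold changes were called for 822 genes upward (4.55%) and 581 downward (3.22%), and at least 8-fold changes for 100 and 24. Across all genes, which are not independent replicates, the change on slide 1 and that on slide 2 correlated with a Pearson r of 0.66, and the median change was -0.01. The split between directions is tied to the scale. Of the called genes, 51.3% were higher, against 69.2% of 2022 when the array median was subtracted. The share was 37.3% of 6187 when the percentile was taken over detected probes, which moved the median change to -0.11. With no filter on dim probes, 2369 of 36310 genes were called. The count itself depends on single arrays, being 2983 without EtoH replicate 1, 3242 without EtoH replicate 2, 3698 without Dex replicate 2 and 2062 when the spread came from the Dex and EtoH arrays alone.

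**Figure D1:**
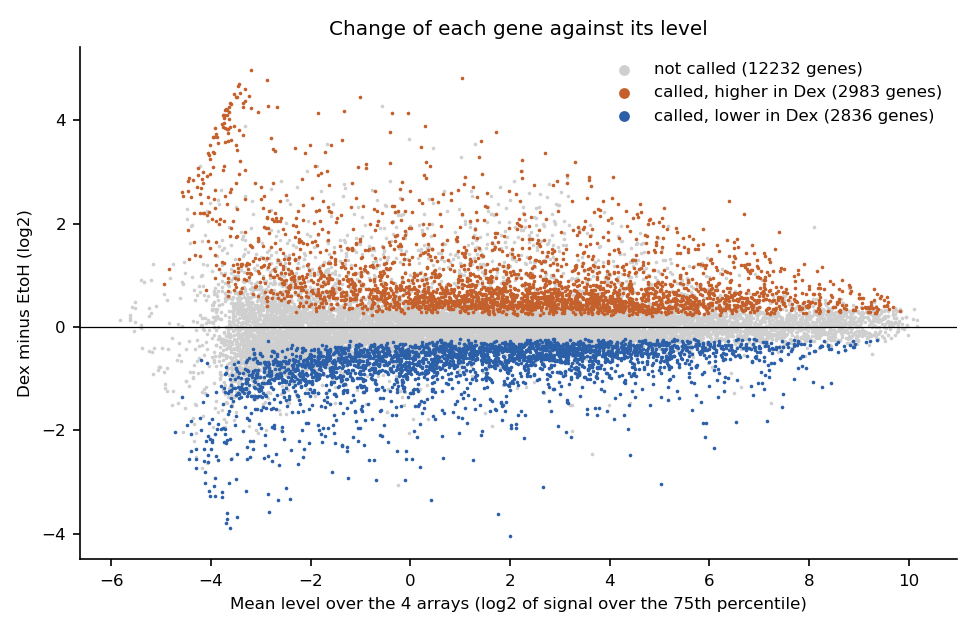
Each point is a gene, with its mean level over the 2 Dex and 2 EtoH arrays on the horizontal axis (log2 of signal over the array's 75th percentile) and the change from EtoH to Dex on the vertical axis (log2). The 2983 called genes higher in Dex and the 2836 lower in Dex are spread over most of the range of levels.

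Among called genes that were detected on all 4 arrays, had no probe in a patch and had groups that did not overlap, the 12 largest increases were led by Ccna2 and Hp and the 12 largest decreases by Il33 and Gstt4. Cyclin A2, Ccna2 (probe at chromosome 3, 36463978 to 36464037 of mm9), which drives DNA replication and entry into mitosis, read -3.61 and -3.23 on the EtoH arrays and 0.74 and 0.77 on the Dex arrays. Haptoglobin, Hp, the haemoglobin scavenger of plasma, read -2.48 and -2.40 in EtoH and 1.67 and 1.73 in Dex. In both genes the replicates lay close together and the groups were far apart. Ccna2 rose 18-fold (4.17 ± 0.19, SE, n = 2 arrays a group, adjusted p = 5.6e-05) and Hp 17.7-fold (4.14 ± 0.11, adjusted p = 2.7e-05). With normexp background correction, which adds an offset of 50 to each signal, changes of dim genes were smaller and these became 2.71 and 2.98 on the log2 scale. Others among the highest 12 were Steap1 (3.53), of a metalloreductase family, the transcriptional repressor E2f7 (3.44), thymidine kinase Tk1 (3.24), the recombination factor Rad51ap1 (3.18), Sapcd2 (3.17), the spindle protein Nusap1 (3.09) and the replication factor Mcm10 (2.95). Of these, Steap1, E2f7, Sapcd2 and Nusap1 were at 2.08, 1.37, 2.29 and 2.05 with normexp. Cox17, a copper chaperone for cytochrome oxidase, also belongs here, at 3.77 ± 0.65, but its Dex arrays disagreed: it read -0.10 and -0.22 in EtoH and 2.53 and 4.69 in Dex. The same gap between Dex replicates was seen for Kcnab1 (3.97 and 5.84 in Dex, change 3.18 ± 0.66) and Gm11938 (2.62 and 4.84, change 3.01 ± 0.77). Without Dex replicate 2 the changes of Cox17, Kcnab1 and Gm11938 were 2.69, 2.25 and 1.90. The calls of these 3 genes were lost with the Dex and EtoH arrays alone, those of Kcnab1 and Gm11938 also without either EtoH array, and that of Gm11938 without Dex replicate 2.

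At the other end, Il33 (chromosome 19, 30035101 to 30035160), an alarmin of the interleukin-1 family, read 3.98 and 4.08 in EtoH and 0.02 and -0.05 in Dex. It was 16.5-fold lower in Dex (-4.04 ± 0.27, adjusted p = 0.00022). The next was Gstt4, a glutathione transferase, which read 3.57 and 3.55 in EtoH but -1.24 and 1.14 in Dex (-3.61 ± 0.65, and -2.42 without Dex replicate 1), a call lost with the Dex and EtoH arrays alone. The antiviral genes Cmpk2, Rsad2, Mx1 and Ifit2 were also among the lowest 12, with changes of -3.09, -3.05, -2.97 and -2.57. Clu, the extracellular chaperone clusterin, read 1.51 and 1.25 in EtoH and -1.62 and -1.55 in Dex (-2.96 ± 0.14, adjusted p = 6.3e-05). The remaining genes of the lowest 12 were Olfr1500 (-2.71), an olfactory receptor gene, the myosin kinase gene Mylk2 (-2.57), the collagen prolyl hydroxylase P4ha2 (-2.55), Pakap (-2.55) and the poly(A) polymerase Tent5c (-2.54).

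**Figure D2:**
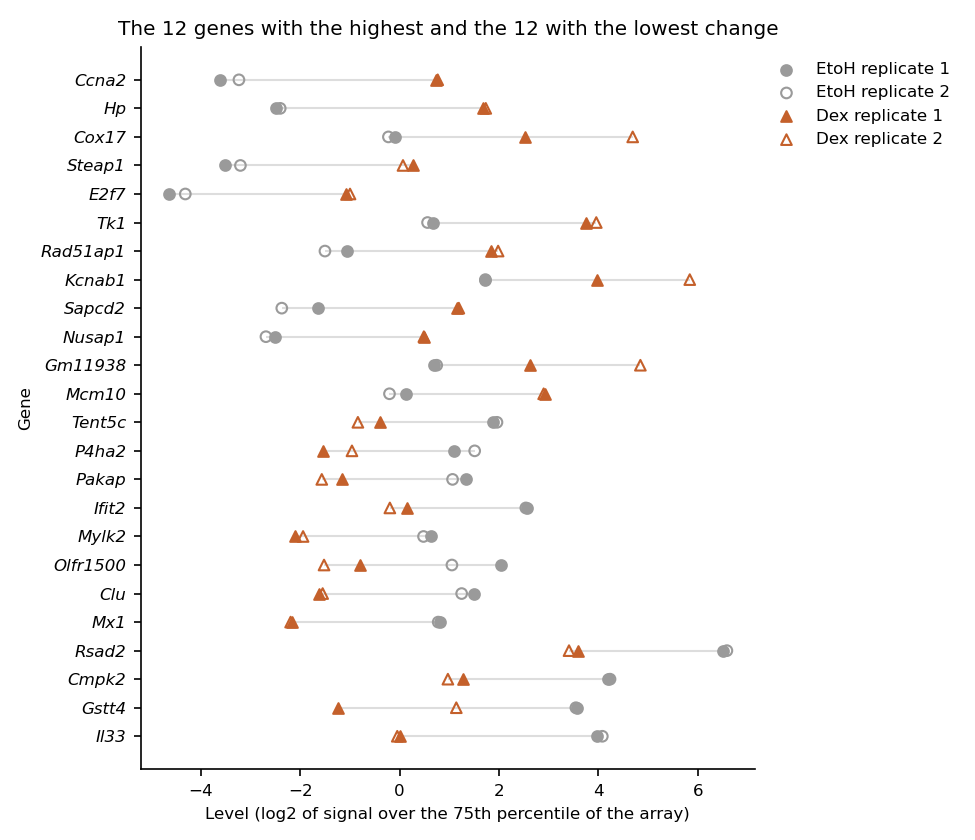
Levels (log2 of signal over the array's 75th percentile) of the 12 called genes with the highest and the 12 with the lowest change among those detected on all 4 arrays, outside patches and with groups that do not overlap, ordered by change, with each of the 2 EtoH arrays (circles) and 2 Dex arrays (triangles) drawn; filled symbols are replicate 1 and open symbols replicate 2. Replicates sit close together for most genes, while Cox17, Kcnab1, Gm11938 and Gstt4 have Dex replicates about as far apart as 2 on the log2 scale.

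Some genes were detected on both arrays of a single group, and their fold is a bound set by the dimmest detected signal on the arrays of the other. In all, 143 called genes were detected on Dex arrays and on no EtoH array, 55 of them with their probe in a Dex patch, and 175 were detected on EtoH arrays and on no Dex array. Among the first, Depdc1b, a regulator of small GTPases in dividing cells, was at least 7.89-fold higher and Uox, urate oxidase, at least 5.78-fold higher. The predicted genes Gm12387, Gm9430, Gm13888 and Gm6093 were at least 8.38-, 8.03-, 5.05- and 4.91-fold higher. Among the second, the adhesion molecule Crtam was at least 5.74-fold lower, the protease inhibitor Serpinb6b at least 5.57-fold, Btg4 at least 3.92-fold, the Nogo receptor Rtn4r at least 3.50-fold and the collagen gene Col23a1 at least 3.47-fold lower. The sialyltransferase gene St8sia5 was at least 3.45-fold lower. These bounds hold for the scale used here: with normexp the fitted log2 changes of the 12 genes just named ran from 1.20 to 2.03 among those higher and from -1.67 to -1.09 among those lower. The same holds for genes given as bounds in their lists, with Mertk at 1.22, Serpina3g at 1.49, Kif2c at 1.31 and Ifnb1 at -1.21 with normexp. The call of Btg4 was lost without EtoH replicate 1 and with the Dex and EtoH arrays alone.

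Genes of mitosis and cytokinesis rose almost as a group. Of the 51 genes on this list, 49 passed the filter on dim probes, and 46 of these rose and 0 fell in the limma fit (46 and 0 at an unadjusted p under 0.05), with a median change of 1.74 beside -0.01 for all genes. Some of them passed only through the groups in which they are bright. Of the 39 that were detected on every Dex and EtoH array, 36 rose. The mitotic kinase Plk1 (probe in a Dex patch) read -0.13 and -0.62 in EtoH and 3.24 and 3.22 in Dex, and the kinase Pbk (also in a patch, and detected on 1 of the 2 EtoH arrays) -2.69 and -3.77 in EtoH and 1.20 and 1.23 in Dex. Both were higher on every Dex array than on any EtoH array, by 3.61 ± 0.17 and 4.44 ± 0.32 (adjusted p = 6.2e-05 and 0.00027). Cdk1, the kinase that starts mitosis, read 1.73 and 1.62 in EtoH and 3.54 and 4.01 in Dex (2.10 ± 0.15, adjusted p = 0.00025). Its partners Ccnb1 and Ccnb2 rose by 1.81 and 2.04. Birc5, the survivin subunit of the chromosomal passenger complex, rose by 2.95, its kinase Aurkb by 1.81, the spindle-pole kinase Aurka by 1.57 and the anaphase activator Cdc20 by 1.61. Mki67, the Ki-67 antigen used to mark cycling cells, read 1.28 and 1.55 in EtoH and 2.83 and 2.71 in Dex (1.35 ± 0.11, adjusted p = 0.00037). The motor gene Kif2c (probe in a Dex patch), which was not detected in EtoH, was at least 4.06-fold higher. Leaving out probes in a patch and refitting, with another probe standing for a gene where it had one, 42 of 45 rose. Without Dex replicate 2, and likewise without Dex replicate 1, the median change of the 49 was 1.74.

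Promoters of this list were set beside all promoters in RefSeq's mouse table (GRCm38.p6), over the 250 bases before each start. The letters searched on both strands were TTTGAA, the core of the cell cycle homology region that recruits a repressor complex in resting cells, and CCAAT, the box bound by NF-Y, and matches of the pair can share at most 1 base. Of the 49 tested genes, 40 matched the table, with 45 promoters. TTTGAA was in 35.6% of them, against 16.0% of all 32851 promoters, and CCAAT in 80.0%, against 33.8%. Of 37 promoters of DNA replication genes, 13.5% held TTTGAA and 62.2% held CCAAT. Of 42 promoters of type I interferon-induced genes, 28.6% held TTTGAA and 33.3% held CCAAT. A match describes the letters and is not shown to be a bound site. Pbk and Ccna2 have no entry in the table. The promoters of the next genes in order of the fitted change, which for Kif2c rests on an EtoH signal not above background, are shown, with any match in capitals, Kif2c at chr4:117178773-117179022 on the minus strand and Plk1 at chr7:122159185-122159434 on the plus strand, each written 5′ to 3′ and ending at the base before the start.
Kif2c: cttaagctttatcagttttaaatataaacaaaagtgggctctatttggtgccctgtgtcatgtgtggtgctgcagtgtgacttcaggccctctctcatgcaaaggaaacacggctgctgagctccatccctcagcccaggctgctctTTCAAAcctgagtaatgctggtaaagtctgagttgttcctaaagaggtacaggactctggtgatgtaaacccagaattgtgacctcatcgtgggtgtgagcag
Plk1: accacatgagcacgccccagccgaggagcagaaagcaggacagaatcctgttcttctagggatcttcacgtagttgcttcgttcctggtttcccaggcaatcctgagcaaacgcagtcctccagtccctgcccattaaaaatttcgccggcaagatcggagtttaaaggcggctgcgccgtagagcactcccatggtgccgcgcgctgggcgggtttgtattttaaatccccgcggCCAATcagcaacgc
In Kif2c the match begins 103 bases before the start and reads TTCAAA, the reverse complement of the letters searched. In Plk1 a CCAAT begins 14 bases before the start, and TTTGAA is not in this window.

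DNA replication genes rose as well. All 39 listed genes were measured, 30 rose and 0 fell in the limma fit (31 and 1 at an unadjusted p under 0.05), with a median of 1.15. The ribonucleotide reductase subunit Rrm2, which supplies deoxynucleotides, read 0.88 and 0.73 in EtoH and 3.61 and 3.76 in Dex. Tk1, of the thymidine salvage pathway, read 0.67 and 0.56 in EtoH and 3.75 and 3.96 in Dex. The groups did not overlap in either gene, and the changes were 2.88 ± 0.16 (adjusted p = 9.6e-05) and 3.24 ± 0.10 (adjusted p = 3.2e-05). Cdc6, which loads the replicative helicase and was detected on 1 of the 2 EtoH arrays, rose by 2.75 (1.67 with normexp), Mcm10 by 2.95, the helicase subunits Mcm6 and Mcm7 by 2.38 and 1.75 and the polymerase Pole by 2.48. The sliding clamp Pcna, bright in both groups (5.29 and 5.30 in EtoH, 5.82 and 5.74 in Dex), rose by only 0.49 ± 0.08 (adjusted p = 0.0058). The licensing factor Cdt1 was -0.30 ± 0.11 (adjusted p = 0.079). Among 32 cell-cycle regulators, 11 rose and 8 fell (median 0.15), beside 16.5% and 15.7% over all genes. Those that rose included the E2F repressors E2f7 (3.44) and E2f8 (2.50), the mitotic transcription factors Mybl2 (2.31) and Foxm1 (1.11) and the D-type cyclins Ccnd1, Ccnd2 and Ccnd3 (0.54, 1.01 and 0.72). Those that fell included the cyclin-dependent kinase inhibitors Cdkn1a (-0.52), Cdkn1b (-0.71) and Cdkn2d (-0.71), the growth-restraining cyclin Ccng2 (-1.67) and the stress genes Gadd45b (-0.99) and Gadd45g (-1.53). These counts became 7 and 3 with the array median subtracted.

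**Figure D3:**
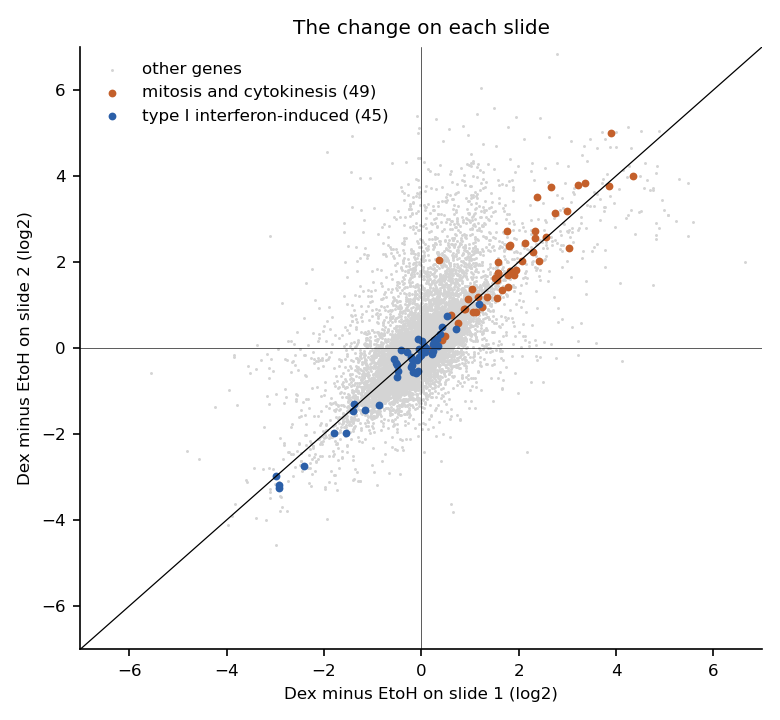
Change from EtoH to Dex (log2) on slide 1 (horizontal) and slide 2 (vertical), with all genes in grey, the 49 mitosis and cytokinesis genes in orange and the 45 type I interferon-induced genes in blue; the diagonal marks equal change. Most members of both lists lie near the diagonal, while many grey points spread above it, where Dex replicate 2 reads higher than Dex replicate 1.

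Ribosome biogenesis, the respiratory chain and sterol synthesis moved upward by smaller amounts. The 17 usual reference genes, given below, had a median change of 0.17. Of 29 ribosome biogenesis genes, 23 rose and 0 fell in the limma fit (25 and 0 at an unadjusted p under 0.05, median 0.63), among them Pes1 and Dkc1, which act in rRNA processing and modification, by 1.26 and 1.17, and Nhp2 and Rrp9 by 1.08 and 1.04. Of 33 respiratory chain genes, 17 rose and 0 fell in the limma fit (19 and 1 at an unadjusted p under 0.05, median 0.32), none by as much as 1 on the log2 scale. The complex II subunit Sdhc read 5.51 and 5.53 in EtoH and 6.21 and 6.30 in Dex, a rise of 0.74 ± 0.08 (adjusted p = 0.0012). Of 35 sterol and fatty acid synthesis genes, 18 rose and 1 fell (median 0.39). The desaturase Scd1 (probe in a Dex patch) rose by 1.35, the cholesterol pathway enzymes Hsd17b7 and Nsdhl by 1.03 and 0.99, and the desaturase Fads2 by 1.01, while Insig2, which holds back the activator of this pathway, fell by 0.25. These counts depend on the scale. With the array median subtracted, limma called 8, 0 and 6 genes of the 3 lists higher (21, 7 and 17 at an unadjusted p under 0.05), although their medians were then 0.73, 0.41 and 0.49, and without Dex replicate 2, 10 respiratory chain genes were.

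Genes of the acute phase, complement and serpins were called higher more often than lower, with some of the largest increases of the whole comparison. Of 27 listed genes 19 were measured, 11 rose and 3 fell, with a median of 0.47. Over all genes 16.5% rose and 15.7% fell, so the falls of the list were near that share. The rises were 6 of the 19 with the array median subtracted. Some genes passed the filter only through groups in which they are bright. Of the 16 detected on every Dex and EtoH array, 8 rose and 3 fell, with a median of 0.14. Serpina3g, a protease inhibitor, was not detected in EtoH and was at least 4.84-fold higher, and its relative Serpina3f was at least 1.71-fold higher. The serum amyloid gene Saa3 was bright in both groups, at 9.32 and 9.22 in EtoH and 9.96 and 9.75 in Dex (0.58 ± 0.11, adjusted p = 0.01), while Saa2, not detected in EtoH, was at least 3.0-fold higher. The complement protease C1ra rose by 1.17. Complement factor B, Cfb, read 4.12 and 4.04 in EtoH and 2.86 and 2.60 in Dex, so it fell by 1.35 ± 0.11 (adjusted p = 0.00043). Serpinb2, plasminogen activator inhibitor type 2, fell by 1.01. Genes of the iron list were also among the largest changes. The ferroxidase ceruloplasmin, Cp, read 2.67 and 2.57 in EtoH and 5.57 and 5.49 in Dex (2.91 ± 0.11, adjusted p = 4e-05), and Steap1 read -3.51 and -3.20 in EtoH and 0.27 and 0.07 in Dex. The haem-degrading enzyme Hmox1 fell by 1.55 ± 0.07 and the iron exporter Slc40a1, ferroportin, by 1.53 ± 0.18 (adjusted p = 5.4e-05 and 0.0017). Of the 31 iron, haem and antioxidant genes 9 rose and 5 fell (median 0.07, which was -0.06 under quantile normalization). These falls were near the share over all genes (15.7%).

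Receptors for dying cells and other scavenger genes were split. Of 19 measured, 5 rose and 7 fell, beside 16.5% and 15.7% over all genes. The median of -0.23 became 0.15 without Dex replicate 2 and ranged up to 0.29 over the alternatives. Mertk (chromosome 2, 128627867 to 128627926), the receptor kinase through which macrophages take up apoptotic cells, read -5.88 and -5.60 on the EtoH arrays, where it was not detected, and -1.64 and -1.62 on the Dex arrays, and was at least 3.79-fold higher. Gas6, which encodes a ligand of Mertk, went the other way, from 2.47 and 2.24 to 1.08 and 0.76 (-1.44 ± 0.14, adjusted p = 0.00087). Trem1, an amplifier of inflammatory signalling, rose by 1.54 and the lipoprotein receptor Scarb1 by 0.94. The glucan receptor Clec7a fell by 1.28, the scavenger receptor Cd36 by 0.80 and the cholesterol exporter Abca1 by 0.74. The mannose receptor Mrc1 and Cd5l, not detected in Dex, were at least 1.54- and 1.84-fold lower, and the call of Cd5l was lost in 5 of 22 alternatives.

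Type I interferon-induced genes fell where they changed most. Of 46 listed genes 45 were measured, of which 14 fell and 5 rose and 26 were not called, with a median of -0.21. Over all genes 15.7% fell and 16.5% rose. Rsad2, which encodes viperin, read 6.51 and 6.58 in EtoH and 3.59 and 3.41 in Dex, and the mitochondrial nucleotide kinase Cmpk2 4.19 and 4.23 in EtoH and 1.27 and 0.97 in Dex. Mx1, an antiviral GTPase, read 0.81 and 0.78 in EtoH and -2.17 and -2.19 in Dex. In these genes both Dex arrays lay far below both EtoH arrays, with changes of -3.05 ± 0.09, -3.09 ± 0.14 and -2.97 ± 0.12 (adjusted p = 3.2e-05, 5.4e-05 and 5.2e-05). Ifit2, which binds foreign RNA, fell by 2.57, its relatives Ifit1, Ifit3 and Ifit3b by 1.30, 1.88 and 1.77, Mx2 by 1.44 and Isg20 by 1.35, the probes of Ifit3, Ifit3b, Mx2 and Isg20 lying in patches on a Dex array. Isg15, a ubiquitin-like modifier, read 9.04 and 8.84 in EtoH and 8.56 and 8.44 in Dex, a fall of 0.44 ± 0.12 (adjusted p = 0.032). The RNA sensor Ddx58 (0.36), Oas3 (0.57), the membrane protein Ifitm3 (0.64), Lgals3bp (0.46) and Ifi44l (1.10, probe in a patch) rose. The interferon-induced GTPases showed 5 falls and 0 rises among 14 in the limma fit (5 and 1 at an unadjusted p under 0.05): Gbp5 fell by 1.89, Gbp2b by 1.60, Gbp2 by 1.55, Tgtp2 by 1.23 and Gbp3 by 0.94. Ifnb1, interferon beta itself, read -2.0 and -1.74 in EtoH and was not detected in Dex (-5.20 and -5.75), at least 2.99-fold lower. With the array median subtracted 9 of the interferon-induced genes fell and 1 rose, and without Dex replicate 2, 11 fell and 3 rose.

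The interferon-stimulated response element core, GAAANNGAAA, was searched on both strands of the 250 bases before each start. It was in 13 of the 42 promoters (31.0%) of the 36 tested list genes in the RefSeq table, against 2.98% of all promoters, in 5 of the 14 promoters of those that fell and in 1 of the 5 of those that rose. Rsad2 and Cmpk2 lie on opposite strands of chromosome 12, and their promoters are shown as those of the 2 members that fell most, Rsad2 at chr12:26456453-26456702 on the minus strand and Cmpk2 at chr12:26468965-26469214 on the plus strand, with any match in capitals.
Rsad2: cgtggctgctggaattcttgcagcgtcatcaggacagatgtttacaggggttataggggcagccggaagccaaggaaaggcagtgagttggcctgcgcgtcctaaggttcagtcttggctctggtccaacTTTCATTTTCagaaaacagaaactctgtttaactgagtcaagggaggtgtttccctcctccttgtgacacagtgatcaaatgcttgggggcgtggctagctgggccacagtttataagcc
Cmpk2: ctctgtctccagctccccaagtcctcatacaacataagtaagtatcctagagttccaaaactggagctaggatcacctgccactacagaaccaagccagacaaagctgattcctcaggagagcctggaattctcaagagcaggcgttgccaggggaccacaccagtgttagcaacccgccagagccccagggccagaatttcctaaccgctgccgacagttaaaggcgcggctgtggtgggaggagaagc
In Rsad2 the match begins 120 bases before the start and reads TTTCATTTTC, the element on the other strand. The window of Cmpk2 does not hold these letters. Promoters of the glucocorticoid receptor targets were searched for ACANNNTGT, the core of the receptor's response element. It was in 4 of the 35 promoters (11.4%) of 24 such genes, against 5.84% of all promoters and 3.63% of those of genes tested. These 4 were among the 14 promoters of the 8 genes that rose, with 0 among the 3 promoters of those that fell. A gene can have several promoters here, and how many genes held the 4 matches was not counted.

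**Figure D4:**
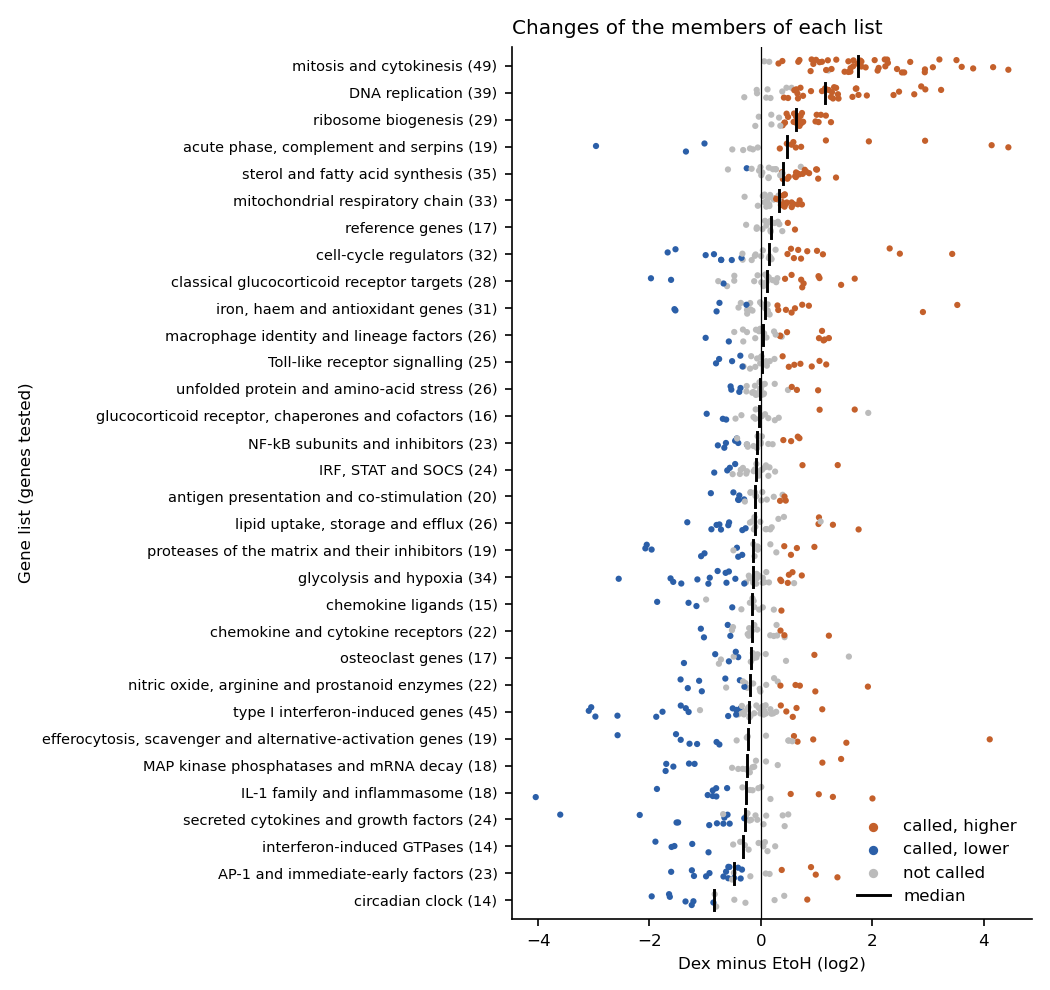
Change from EtoH to Dex (log2) of each member of the gene lists with at least 14 tested genes, ordered by the median (black bar), with the number tested in brackets; orange and blue points are called genes higher and lower in Dex and grey points are not called. Mitosis and cytokinesis has the highest median (1.74) and the circadian clock the lowest (-0.84).

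Cytokine genes fell where called, but several of the best known inflammatory cytokines were not called. Of 24 secreted cytokine and growth factor genes 11 fell and 0 rose in the limma fit (14 and 0 at an unadjusted p under 0.05, median -0.29), with 8 probes in patches on a Dex array; with the array median subtracted 5 fell. Tnf (probe in a patch) read 7.55 and 7.66 in EtoH and 7.49 and 7.59 in Dex, with overlapping groups (-0.06 ± 0.11, 95% interval -0.33 to 0.20, adjusted p = 0.67; 0.03 with the array median subtracted). Il6 read 6.39 and 6.52 in EtoH and 6.23 and 6.13 in Dex (-0.27 ± 0.10, unadjusted 95% interval -0.52 to -0.02, adjusted p = 0.087). Il10, an anti-inflammatory cytokine, was -0.18 ± 0.08 (adjusted p = 0.14). Lif fell by 1.49 and Osm by 0.79, both of the interleukin-6 family, and the lymphocyte growth factor Il15 by 1.51. The activin subunit Inhba, not detected in Dex, was at least 1.43-fold lower, the stress cytokine Gdf15 fell by 0.93 and Csf2, GM-CSF, by 0.56 (probe in a patch).

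The interleukin-1 family held some of the largest falls. Of its 18 genes 8 were lower and 4 higher (median -0.26), beside 15.7% lower and 16.5% higher over all genes. Il1b (probe in a Dex patch) read 6.92 and 6.82 in EtoH and 4.97 and 5.04 in Dex, 3.64-fold lower (-1.87 ± 0.11, adjusted p = 0.00012). Il1a (probe in a patch) fell by 0.86, the receptor antagonist Il1rn by 0.80 and the interleukin-18 binding protein Il18bp by 0.86. While Il33 fell, the gene for its receptor, Il1rl1, rose from 1.19 and 1.09 to 2.85 and 3.44 (2.0 ± 0.19, adjusted p = 0.00068). The inflammasome sensor Nlrp3 rose by 1.29, Mefv, detected on 1 of the 2 EtoH arrays, by 1.04 and the adaptor Pycard by 0.54, and Nlrc4 (probe in a patch) fell by 0.95. Without Dex replicate 2 the list had 6 falls and 2 rises, and with the array median subtracted 3 falls and 3 rises.

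Among 15 chemokine genes 4 fell and 1 rose (median -0.15). Ccl12 read 2.02 and 2.11 in EtoH and 0.27 and 0.14 in Dex (-1.86 ± 0.19, adjusted p = 0.00086), and Ccl7 8.14 and 8.12 in EtoH and 6.85 and 6.81 in Dex (-1.30 ± 0.11, adjusted p = 0.00051). Both attract monocytes. Ccl5, which attracts T cells, fell by 1.16 and Cxcl10 by 0.51, a call lost in 5 of 23 alternatives. Ccl2 was at 9.90 and 9.70 in EtoH and 9.61 and 9.69 in Dex (-0.15 ± 0.11, adjusted p = 0.3), while Ccl3 rose by 0.37. Of 22 chemokine and cytokine receptors 4 fell and 3 rose (median -0.17), near the shares over all genes (15.7% lower and 16.5% higher). The fractalkine receptor Cx3cr1 rose by 1.22, and the shared subunit of the GM-CSF receptor, Csf2rb, fell by 1.08, the decoy-like receptor Ccrl2 by 1.02 and Tgfbr2 by 0.59.

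Genes for nitric oxide, arginine and prostanoid metabolism moved in both directions. Of 22 measured, 7 fell and 5 rose (median -0.19; 4 and 2 with the array median subtracted). Over all genes 15.7% fell and 16.5% rose. Nos2, inducible nitric oxide synthase, read 7.46 and 7.61 in EtoH and 6.25 and 6.19 in Dex, 2.48-fold lower (-1.31 ± 0.09, adjusted p = 0.00022). Ptgs2, inducible cyclooxygenase (probe in a Dex patch), read 8.56 and 8.68 in EtoH and 7.68 and 7.44 in Dex, 2.09-fold lower (-1.06 ± 0.13, adjusted p = 0.002). Both genes remained bright in Dex. The prostaglandin D synthase Hpgds fell by 1.44, the prostaglandin receptor Ptger2 by 1.11 and arginase 2, Arg2, by 0.64. The arginine transporter Slc7a2, not detected in EtoH, was at least 3.14-fold higher, and Alox5 and Alox5ap, which act in leukotriene synthesis, rose by 0.98 and 0.62. Among 19 genes for matrix proteases and their inhibitors 8 fell and 4 rose (median -0.14; 5 and 1 with the array median subtracted), beside those same shares. The collagenase Mmp13 fell by 2.07, Adamts1 by 2.05, the inhibitor Timp1 by 1.96 and urokinase, Plau, by 1.07, and the gelatinase Mmp9 rose by 0.96.

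Early-response transcription factors had more calls downward than upward on the scale used here. Of 23 AP-1 and immediate-early genes 14 fell and 4 rose (median -0.48), the rises near the share over all genes (16.5%). Myc read 1.38 and 1.49 in EtoH and 0.01 and -0.36 in Dex (-1.61 ± 0.20, adjusted p = 0.0018), Ier3 fell by 1.24, Atf3 by 1.20 and Jun by 0.98. Egr1 rose by 1.37, Batf3 by 0.99 and Ier2 by 0.90. With the array median subtracted 3 fell and 3 rose, so the balance of calls was lost, although the median was -0.39, and with the Dex and EtoH arrays alone 6 fell and 3 rose. MAP kinase phosphatases were mostly lower where called: Dusp10, Dusp14, Dusp5, Dusp4 and Dusp8 fell by 1.71, 1.70, 1.57, 1.29 and 1.19, while Dusp2 rose by 1.10. Dusp1, the phosphatase best known as induced by glucocorticoids, read 4.91 and 5.07 in EtoH and 4.79 and 4.95 in Dex (-0.12 ± 0.16, 95% interval -0.51 to 0.27, adjusted p = 0.6). The mRNA-decay factor Zfp36 rose by 1.44 ± 0.30, with Dex arrays at 4.43 and 5.40 that differed from each other.

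Genes of the signalling pathways that Toll-like receptors feed moved in both directions, with medians near that of all genes. Of 25 Toll-like receptor signalling genes 7 rose and 5 fell (median 0.01, which was -0.09 with the percentile over detected probes). Over all genes 16.5% rose and 15.7% fell. Tlr13, Tlr7 and Tlr2 rose by 1.17, 0.91 and 0.71, and Irak3, a brake on this pathway, by 1.05. The inhibitor Tollip fell by 0.80 and Ly96, the LPS-binding partner of Tlr4, by 0.75 (probe in a patch). Of 23 NF-kB genes 7 fell and 4 rose (median -0.07), the rises near the share over all genes (16.5%). With the array median subtracted limma called 0 and 0 (2 and 3 at an unadjusted p under 0.05), and the median was 0.03. Traf1 fell by 0.77 and Nfkb2 by 0.43, and Nfkb1 rose by 0.66. Cflar fell by 0.66, but its probes were called in opposite directions. Of 24 IRF, STAT and SOCS genes 4 fell and 2 rose (median -0.09), no more than near the shares over all genes (15.7% and 16.5%). With the array median subtracted limma called 0 lower and 1 higher (1 and 2 at an unadjusted p under 0.05). Cish fell by 0.84, Stat2 by 0.60 and Irf1 by 0.46. Jak2 (probe in a patch) was 1.38 ± 0.42, with Dex arrays at 3.61 and 5.11.

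Genes known as direct targets of the glucocorticoid receptor gave a mixed picture. Of 28 tested, 9 rose and 3 fell (median 0.11), beside 16.5% and 15.7% of all genes. Fkbp5 (chromosome 17, 28536060 to 28536119), a co-chaperone that dampens the receptor, read 3.17 and 3.08 in EtoH and 4.71 and 4.91 in Dex, 3.22-fold higher (1.69 ± 0.13, adjusted p = 0.00037). The lipase inhibitor Angptl4 rose by 1.04 and the formyl peptide receptors Fpr1 and Fpr2 by 0.77 and 0.72. Sgk1 rose by 0.43 ± 0.12 (adjusted p = 0.035), a call kept in 13 of 23 alternatives. Against the name of the list, Rgs2, a brake on G-protein signalling, fell by 1.97, the mTOR inhibitor gene Ddit4 by 1.61 and Klf4 by 0.67. Tsc22d3, the gene of the leucine zipper protein GILZ, read 3.95 and 3.96 in EtoH and 4.09 and 4.10 in Dex (0.14 ± 0.09, 95% interval -0.07 to 0.35, adjusted p = 0.25). Klf9 was 0.10 ± 0.12 (adjusted p = 0.52) and Per1 -0.48 ± 0.15 (adjusted p = 0.05, not called). Zbtb16 was detected on 1 EtoH array and on no Dex array. The receptor gene Nr3c1 was -0.09 ± 0.09 (adjusted p = 0.46; 0.0014 with the array median subtracted). Among the receptor's chaperones Fkbp4 rose by 1.05 and Hsp90aa1 and Dnajb1 fell by 0.97 and 0.68.

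The circadian clock list had the lowest median, -0.84, with 7 of 14 genes lower and 1 higher. Tef, an output factor of the clock, read 2.99 and 3.03 in EtoH and 1.11 and 0.99 in Dex (-1.96 ± 0.09, adjusted p = 6.4e-05). Its relative Dbp fell by 1.35, the repressors Bhlhe40 and Bhlhe41 by 1.65 and 1.24, Cry1 by 1.21 and Nr1d2 by 1.63 ± 0.49, a call kept in 11 of 22 alternatives. Nfil3, a repressor of the same target sites as Tef and Dbp, rose by 0.83. Without Dex replicate 2, or without EtoH replicate 2, 4 genes of the list fell.

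Metabolic genes other than those of sterol synthesis moved both ways. Of 34 glycolysis and hypoxia genes 13 fell and 6 rose (median -0.14), the rises near the share over all genes (16.5%). Under subtraction of the array median limma called 6 lower and 0 higher (8 and 5 at an unadjusted p under 0.05). Besides P4ha2, the enolase Eno2 fell by 1.62 (4.76 and 4.74 in EtoH, 3.15 and 3.1 in Dex), the hypoxia-induced genes Ankrd37 and Adm by 1.57 and 1.43 and Ndrg1 by 1.14, while the glucose transporter Slc2a3 rose by 0.73 and Slc2a1 fell by 0.62. Of 26 genes of lipid uptake, storage and efflux 9 fell and 4 rose (median -0.11, and 0.02 without Dex replicate 2). The rises were near the share over all genes (16.5%). With the array median subtracted 1 fell and 4 rose. Lipoprotein lipase, Lpl, read 4.8 and 4.62 in EtoH and 6.47 and 6.46 in Dex (1.75 ± 0.12, adjusted p = 0.00022), and Dgat2 (probe in a patch) and Fabp4 rose by 1.29 and 1.04. The lipid-droplet gene Hilpda fell by 1.32. Of 26 genes of unfolded protein and amino-acid stress 4 fell and 3 rose (median -0.02, which was 0.08 with the array median subtracted), not above the shares over all genes (15.7% and 16.5%), with Ddit3 at -0.54 and Mthfd2 at 1.03.

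Macrophage identity genes stayed detected, with a median change near that of all genes but more calls higher than lower. Of 26, 8 rose and 2 fell (median 0.04, which was -0.07 with the percentile over detected probes). Over all genes 16.5% rose and 15.7% fell. Siglec1, Itgam and Csf1r rose by 1.15, 1.13 and 1.10 and the lysozyme gene Lyz2 by 1.04. Of 20 genes of antigen presentation and co-stimulation 6 fell and 3 rose (median -0.10), beside 15.7% lower and 16.5% higher over all genes. Cd83 was at -0.90 and the checkpoint ligand Cd274 at -0.49. Under subtraction of the array median limma called 0 of the 20 lower and 0 higher (1 and 0 at an unadjusted p under 0.05). Of 17 osteoclast genes 5 fell and 1 rose (median -0.18), among them Atp6v0d2 by 1.38 (probe in a patch), Oscar by 0.82 and Ostm1 by 0.57; without Dex replicate 2, 2 fell, and with the array median subtracted 1 fell and 2 rose. The usual reference genes Gapdh (0.10 ± 0.09, adjusted p = 0.44) and Actb (0.03 ± 0.13, adjusted p = 0.88) were not called, while Hprt (probe in a patch) and Tfrc rose by 0.48 and 0.61. Of the 17 reference genes 14 had a positive change. Their median was 0.17, and 0.27 with the array median subtracted. The T cell markers had 5 of 12 genes measured, and their summed level was 5.48 and 5.54 in EtoH and 5.89 and 7.04 in Dex. That of the neutrophil and mast cell markers, 4 of 13 measured, was 5.81 and 6.16 in EtoH and 6.35 and 7.36 in Dex. The high value in both lists is Dex replicate 2, where Cd4 read 6.80 and Elane 7.09, against 5.31 and 5.49 on Dex replicate 1. Cd4 was called (1.43 ± 0.43, adjusted p = 0.043) in 13 of 23 alternatives and Elane was not (adjusted p = 0.092). Il7r and Cd28 (probe in a patch) of the T cell list fell by 1.08 and 2.0. Fibroblast and epithelial markers had 3 of 10 and 2 of 9 genes measured, with summed levels from -1.13 to -0.59 and from -1.85 to -0.92, and 0 of 9 B cell markers passed the filter on dim probes. The part of these markers in the changes above was not tested.

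Dexamethasone was then set against the mean of FF, VSG22 and VSGC12, which were given at the same dose and time. Of 18031 genes tested, 178 (0.987%) were called, 130 higher in Dex (0.721%) and 48 lower (0.266%). The probe lay in a Dex patch for 70 of the 178, and without the probes in patches 44 genes were called. The count was 950 without Dex replicate 1 and 267 without Dex replicate 2. The count ranged from 71 to 98 when any array of another group was left out. These comparisons share the Dex arrays with those against EtoH.

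Among 45 type I interferon-induced genes, 7 were higher in Dex than the mean of the other 3 groups and 0 lower in the limma fit (20 and 0 at an unadjusted p under 0.05), 4 of the 7 with their probe in a Dex patch; leaving out such probes and refitting, 4 of 40 were higher. Mx1 read 0.81 and 0.78 in EtoH and -2.17 and -2.19 in Dex. It read between -3.92 and -2.94 on the 6 arrays of the other glucocorticoids, reaching below Btg4 on Dex replicate 1 (-3.49, not detected). Dex thus lay above each of the 6, by 1.28 ± 0.10 on their mean (adjusted p = 0.0054), a call kept in 22 of 22 alternatives, though the difference was 0.41 with normexp. Ifit2 was 1.03 ± 0.09 higher in Dex than their mean (adjusted p = 0.0075) and Rsad2 0.81 ± 0.08 (adjusted p = 0.008). Gbp3, of the interferon-induced GTPases, was 0.92 ± 0.09 higher (adjusted p = 0.0091). Ccl12 read 0.27 and 0.14 in Dex and from -1.77 to -0.77 in the other groups (1.31 ± 0.15, adjusted p = 0.018), and Ccl7 6.85 and 6.81 in Dex and 5.64 to 6.10 in the others (0.94 ± 0.09, adjusted p = 0.0088). The complement receptor C3ar1 (0.95 ± 0.14, adjusted p = 0.042) and Il10 (0.52 ± 0.07, adjusted p = 0.026) were also higher in Dex than in the others, with calls kept in 7 and 12 of 22 alternatives. So was Ehmt1, a histone methyltransferase gene (1.07 ± 0.15, adjusted p = 0.036, kept in 7 of 22).

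In the other direction, Hp read 1.67 and 1.73 in Dex and 2.60 to 3.1 in the other glucocorticoid groups, 1.15 ± 0.09 below their mean on the log2 scale (log2 difference -1.15, adjusted p = 0.0054, kept in 22 of 22 alternatives). Serpina3g differed by -1.23 ± 0.14 (adjusted p = 0.016). Of the mitosis list 2 of 49 genes, Ccnb2 (-0.64 ± 0.07, adjusted p = 0.019) and Ube2c (-0.53 ± 0.08, adjusted p = 0.045), and of the DNA replication list 1 of 39, Tk1 (-0.51 ± 0.08, adjusted p = 0.043, kept in 7 of 22 alternatives), were lower in Dex and 0 were higher in the limma fit (at an unadjusted p under 0.05, 40 of the mitosis list lower and 0 higher, and 21 and 2 of the replication list). The median difference of the mitosis list was -0.37. The centrosomal gene Cep295 (-1.46 ± 0.18, adjusted p = 0.021, and -0.79 with the mean of its probes), the zinc-finger gene Zfp101 (-0.92 ± 0.09, adjusted p = 0.008) and the predicted genes Gm1976 (-1.14 ± 0.10, adjusted p = 0.0072) and Gm7468 (-1.20 ± 0.18, adjusted p = 0.04, kept in 10 of 22 alternatives) completed those lowest relative to the other 3. Cep295, Gm1976 and Gm7468 were lower in Dex than in EtoH too, by log2 changes of -1.24, -0.87 and -0.89, while Zfp101 was -0.13 against EtoH (adjusted p = 0.38). In the limma fit 0 of the 28 tested glucocorticoid receptor targets were called between Dex and the other 3 (8 at an unadjusted p under 0.05), Fkbp5 being at -0.57 ± 0.11 (adjusted p = 0.072).

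**Figure D5:**
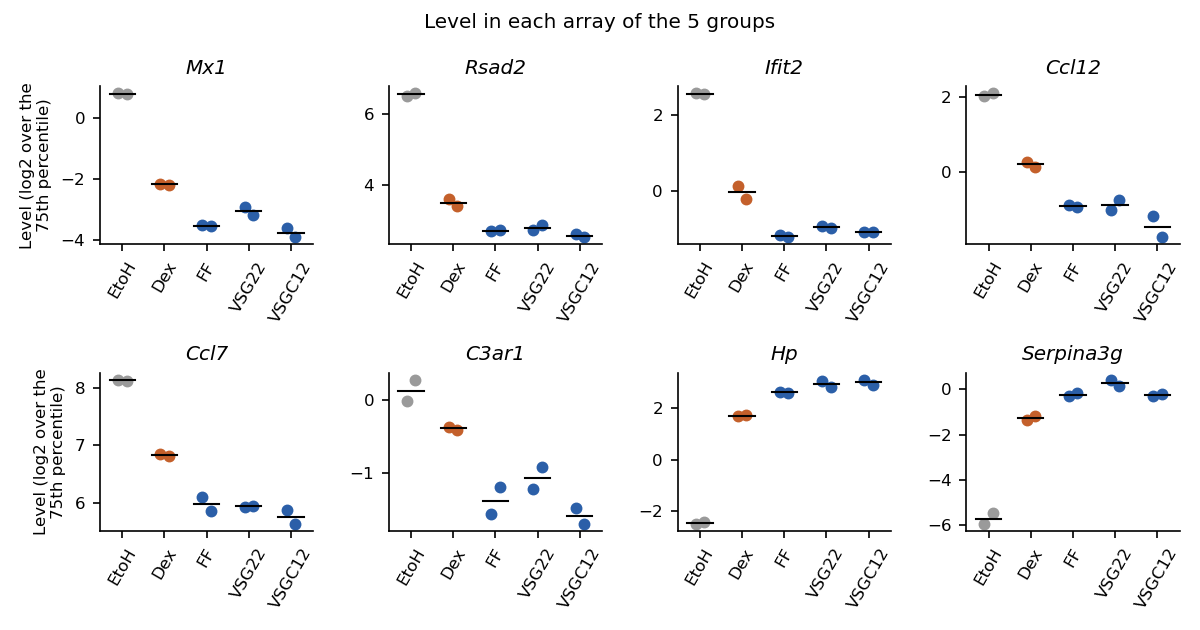
Level (log2 of signal over the array's 75th percentile) on each of the 2 arrays of the 5 groups for Mx1, Rsad2, Ifit2, Ccl12, Ccl7, C3ar1, Hp and Serpina3g, with the group mean as a bar. In each panel the Dex arrays lie between those of EtoH and those of FF, VSG22 and VSGC12.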

How the data were processed

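RNA of RAW264.7 cells was hybridised to 10 1-colour Agilent mouse arrays, 2 for each of 5 groups, with 62976 spots each. The deposited values used are, per the file headers, the processed intensity of each spot after the scanner software's background correction. Control and outlier spots were left out, spots of a probe averaged, and log2 values taken relative to each array's 75th percentile over probes. A probe was kept where it was well above background, on more than 0.5 of its spots, on every array of at least 1 group. A gene was its brightest kept probe; of 4086 genes with several, 63 had probes called in opposite directions. Names came from RefSeq's mouse table (26413 probes by accession, 3859 by symbol, 735 by synonym) or otherwise from the files (24674). Probe positions are those of the files (mm9), promoters those of GRCm38.p6.

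Group means were fitted over all 10 arrays with limma 3.58.1 (R 4.3.3), with 5 residual degrees of freedom, and p-values adjusted by Benjamini-Hochberg over all genes; the fit was tested on simulated data. A patch needed at least 3 of the 24 neighbouring spots detected on that array and on no array of the other groups. The arrays' number limits the precision. The members and the 37 gene lists were chosen with earlier results of these data known. Genes were named as the 12 highest and 12 lowest described, the 6 highest and lowest bounds, up to 4 called members of each list with the largest change, a list of 22 key genes, and the 5 highest and lowest against the other glucocorticoids; further list members were chosen after their values were seen. Same-numbered arrays share a slide, each slide holding every group, but their deviations correlated between -0.04 and 0.32, so the numbers were not taken as pairs.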

Additional observations from a re-analysis of the deposited data

Results flagged for a closer look

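Of the 178 genes that differed between Dex and the other glucocorticoids, those given here are the key genes and the 5 highest and 5 lowest by the naming rule. For them the difference between dexamethasone and the mean of FF, VSG22 and VSGC12 passed the test of that difference in the limma fit, which means that the change from solvent differed between them, since all share the solvent arrays. Among these, higher in Dex than in the other 3 were Ccl12 (1.31 on the log2 scale), Mx1 (1.28), Ehmt1 (1.07), Ifit2 (1.03), C3ar1 (0.95), Ccl7 (0.94) and Il10 (0.52). Lower in Dex among these were Cep295 (-1.46), Gm7468 (-1.20), Hp (-1.15), Gm1976 (-1.14) and Zfp101 (-0.92). The Dex arrays also had the widest spread between replicates, with an SD of 0.63 against at most 0.41 in the other groups, and its part in these differences was not tested.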

How the results depend on the processing

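Of 171 named genes 157 were called between Dex and EtoH. Of these, 110 kept the call under every alternative that gave them a value, which was at most 23. Of 3888 gene values under alternatives, 199 lost a call and 17 gained one, most often lost with the Dex and EtoH arrays alone (33), with the array median subtracted (29) and with no filter on dim probes (25). The sign changed for Nr3c1 (0.0014) and Tnf (0.0298) with the array median subtracted, and, as single Dex arrays were left out, for Cldn7 (from -0.3455 to 0.0689) and Zfp101 (from -0.2778 to 0.0228), none of them called. The 5819 calls became 2022 with the array median subtracted, 2369 with no filter and 2062 with the Dex and EtoH arrays alone, and from 2983 to 6294 when any single array was left out. The 178 calls against the other glucocorticoids became 674 with normexp background correction, 43 with no filter, 39 with probes detected throughout Dex and EtoH, 62 with array weights, 44 without probes in patches, and from 71 to 950 when any single array was left out. The cause of these shifts was not tested. Medians of gene lists changed sign in 26 of 828 cases, in 10 lists. A percentile over spots, chosen after seeing the data, gave 5902 and 179 calls. With the replicate number, which stands for the slide, as a block, 6271 genes and 195 genes were called. The main fit did not take the numbers as pairs. Where an array was left out, the lone array of its group was assumed to vary like the others. Signal over background limits dim genes: only 40.1% to 44.4% of spots were detected.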
